A study of Arabidopsis thaliana with 4 samples.

Results

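The SnRK2 kinases (SNF1-related protein kinases of family 2) were examined in sorted guard cells of Arabidopsis thaliana. They are 9 genes taken by locus identifier from a table of 33602 genes: OST1 (also called SnRK2.6), SnRK2.1, SnRK2.2, SnRK2.3, SnRK2.4, SnRK2.5, SnRK2.7, SnRK2.8 and SnRK2.10. RNA came from guard cell protoplasts that were separated by fluorescence-activated sorting from the aerial parts of seedlings at 12 days post germination. Guard cells from plants with the fama-1 mutation and a FAMA-LGK transgene under the FAMA promoter (FAMA-LGK, 2 libraries) were compared with guard cells from wild-type plants (WT, 2 libraries). FAMA is a transcription factor of the guard cell lineage, so its promoter limits the transgene to that lineage. FAMA-LGK is a form of FAMA altered at the motif through which it binds the retinoblastoma-related protein. The study set reprogrammed guard cells against differentiated ones, and its labels give these genotypes and no other agent or treatment. How many transgenic lines were used, which fluorescent marker guided the sort, and whether the 2 libraries of a genotype came from separate plantings, is not given in the sources used here, so a p-value measures only the spread between these libraries, which may be technical.

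SnRK2 kinases are plant-specific protein kinases that act in the response to abscisic acid (ABA), the hormone that closes stomata in drought. Without ABA, clade A protein phosphatases of type 2C hold the ABA-activated kinases inactive. ABA bound to PYR/PYL receptors blocks the phosphatases, and the kinases are then free to phosphorylate ion channels, an NADPH oxidase and transcription factors. The kinases fall into subclasses. Subclass III (OST1, SnRK2.2 and SnRK2.3) is strongly activated by ABA, subclass II (SnRK2.7 and SnRK2.8) weakly, and subclass I (SnRK2.1, SnRK2.4, SnRK2.5 and SnRK2.10) by osmotic stress but not by ABA. OST1 is the member known for stomatal closure, and its name, OPEN STOMATA, comes from mutants that fail to close their stomata. Transcript levels say nothing of kinase activity, which is set by phosphorylation.

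The members are close relatives, and the stretch below shows how close for 8 of the 9. It is the coding sequence of the activation segment, the loop between the DFG and APE motifs of the kinase domain that is phosphorylated when the kinase is switched on. Each sequence is 81 bases, read 5′ to 3′ on the coding strand from the RefSeq annotation of TAIR10.1, and starts at base 478 of the coding sequence in OST1. Capitals mark bases that differ from OST1.
OST1: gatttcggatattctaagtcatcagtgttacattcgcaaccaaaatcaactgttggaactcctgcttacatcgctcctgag
SnRK2.3: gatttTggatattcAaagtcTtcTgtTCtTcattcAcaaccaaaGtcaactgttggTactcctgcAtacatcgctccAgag
SnRK2.7: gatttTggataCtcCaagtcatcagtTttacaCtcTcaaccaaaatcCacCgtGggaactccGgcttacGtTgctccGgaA
SnRK2.8: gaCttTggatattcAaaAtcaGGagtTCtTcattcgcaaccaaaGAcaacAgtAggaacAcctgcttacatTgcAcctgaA
SnRK2.1: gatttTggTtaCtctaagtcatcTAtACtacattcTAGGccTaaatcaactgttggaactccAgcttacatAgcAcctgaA
SnRK2.4: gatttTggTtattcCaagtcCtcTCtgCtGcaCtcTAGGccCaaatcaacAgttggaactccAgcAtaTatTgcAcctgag
SnRK2.5: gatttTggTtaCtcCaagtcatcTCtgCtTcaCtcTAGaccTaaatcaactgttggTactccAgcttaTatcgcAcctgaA
SnRK2.10: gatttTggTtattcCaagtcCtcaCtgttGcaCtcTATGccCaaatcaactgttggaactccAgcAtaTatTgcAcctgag

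Of the 7 set against OST1, SnRK2.3 differed at the fewest of these bases, 12, and SnRK2.4 at the most, 20. Over whole coding sequences, 26 pairs of members from different subclasses were 66.8% to 73.1% identical and 10 pairs within a subclass 69.4% to 86.8%. The closest pairs were SnRK2.1 with SnRK2.5 (86.8%), SnRK2.4 with SnRK2.10 (86.8%) and SnRK2.2 with SnRK2.3 (84.4%). Reads of such genes can be told apart only where the genes differ, so the transcripts were compared in words of 50 bases. Only sense strands were compared, which leaves out the overlaps with opposite-strand genes given below for SnRK2.5 and SnRK2.8. In 7 members no such word occurred in the annotated transcripts of any other gene. The exception was a run of 59 bases shared by SnRK2.4 and SnRK2.10, given below with 10 flanking bases on each side, where capitals mark the shared run, which starts at base 550 of the SnRK2.4 coding sequence and at base 526 in SnRK2.10.
SnRK2.4: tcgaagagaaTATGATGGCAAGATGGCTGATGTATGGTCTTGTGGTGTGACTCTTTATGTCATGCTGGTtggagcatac
SnRK2.10: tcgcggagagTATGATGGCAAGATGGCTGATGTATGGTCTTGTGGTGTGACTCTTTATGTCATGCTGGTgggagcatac

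This run held 0.517% of the words of SnRK2.4. The read length of the libraries is not given in the sources used here, and shorter reads would be shared over longer parts of the genes.

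Across the whole table, 1907 of 15143 genes tested passed the threshold between FAMA-LGK and WT guard cells (12.6%), 977 higher (6.45%) and 930 lower (6.14%). The split depended on the scaling and on the libraries, with 1504 higher and 736 lower after removal of ribosomal RNA and organelle genes, and 611 higher and 1074 lower when FAMA-LGK replicate 2 was left out. A gene was tested where its mean over the 4 libraries was at least 1 TPM (a transcript level scaled for gene length and for the library total), and the threshold was an adjusted p of 0.05 (limma, Benjamini-Hochberg over all genes tested). The libraries held an estimated 17583927 to 20136826 reads. FAMA itself was at 94.3 and 81.2 TPM in FAMA-LGK and at 66.1 and 65.6 TPM in WT, and a value per gene does not separate transgene from mutant locus. Of 13 guard cell markers, 9 were lower in FAMA-LGK, 1 was higher and 3 were not called, and their summed level was 2915 and 2543 TPM in FAMA-LGK and 18004 and 13893 TPM in WT, most of it from the myrosinase gene TGG1. Of 6 markers of the epidermis in general, 4 were higher in FAMA-LGK and 2 were not called, with sums of 359.7 and 316.2 TPM against 115.8 and 81.8 TPM in WT. Of 7 mesophyll markers 1 was lower and 6 were not called, with sums of 439.8 and 516.5 TPM in FAMA-LGK and 554.6 and 601.4 TPM in WT. None of the 7 vasculature and 3 trichome markers was above 1.79 TPM in any library. Ribosomal RNA and organelle genes took 62.8% of TPM in FAMA-LGK replicate 1 and 53.2% in FAMA-LGK replicate 2, against 52.0% and 52.5% in the WT libraries. Organelle genes alone took 29.8% and 30.8% in FAMA-LGK replicates 1 and 2, and 27.8% and 25.3% in WT replicates 1 and 2. All TPM of a library add up to a fixed total, so genes outside both classes shared a smaller remainder in FAMA-LGK replicate 1. In sorted bulk RNA, fewer cells of a type and less RNA per cell cannot be told apart.

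No SnRK2 gene passed the test between FAMA-LGK and WT guard cells. Of the 9 members, 6 were tested, and limma called 0 of them higher and 0 lower, against 12.6% of all genes called in either direction. SnRK2.4 was the 1 member of the 6 whose limma p before adjustment was below 0.05, beside 28.3% of all genes tested, and voom on estimated reads called 0. The TPM ranges of FAMA-LGK and WT did not overlap for 2 of the 6, beside 57.3% of all genes tested. The log2 fold changes of the 6 had a median of 0.01, with 3 above and 3 below 0, beside a median of 0.06 over all genes tested, and the median of their absolute sizes was 0.29, beside 0.43 over all genes. The order of these 6 was the same in each of the 4 libraries: SnRK2.3 was highest, followed by SnRK2.10, OST1, SnRK2.2, SnRK2.4 and SnRK2.1. Of neighbours in this order, SnRK2.3 and SnRK2.10 overlapped in range across the FAMA-LGK libraries, as did SnRK2.2 and SnRK2.4, whereas in WT no neighbours overlapped.

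**Figure D1:**
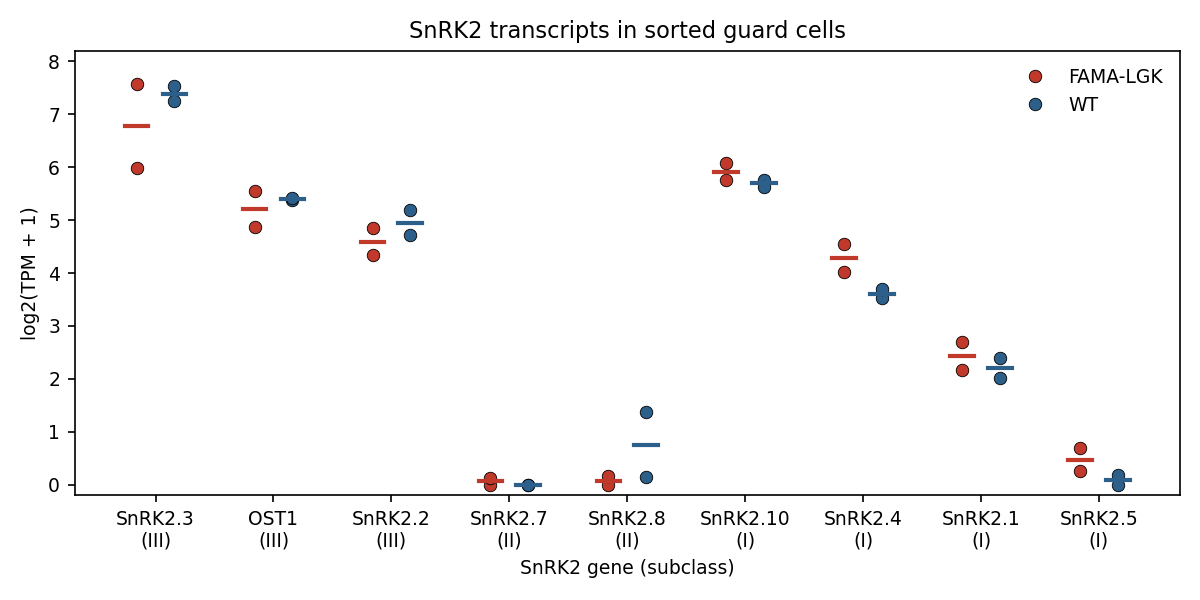
Level of each of the 9 SnRK2 genes as log2(TPM + 1), ordered by subclass (III, II, I), in FAMA-LGK (red, left of each pair) and WT (blue, right) libraries, with points for the 2 libraries and a bar for their mean. SnRK2.3 is highest, SnRK2.7, SnRK2.8 and SnRK2.5 lie near 0, and only SnRK2.4 and SnRK2.10, both in subclass I, have separated ranges among the 6 tested genes.

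OST1 (AT4G33950), the kinase of stomatal closure, was at 28.2 and 45.6 TPM in the FAMA-LGK libraries and at 40.6 and 42.0 TPM in the WT libraries. The WT values lay between the FAMA-LGK values, so the ranges overlapped. Mean levels were 36.9 ± 12.3 TPM in FAMA-LGK and 41.3 ± 0.988 TPM in WT (SD, n = 2 libraries each), behind which stood 502 and 815 estimated reads in FAMA-LGK and 737 and 866 in WT. The log2 fold change on the log2(TPM + 1) scale was -0.20 (SE 0.26, 95% interval -0.77 to 0.37, limma adjusted p = 0.661). A fall or a rise within these bounds is not excluded by the data. The low value in FAMA-LGK replicate 1 came closer to the others after removal of ribosomal RNA and organelle genes and rescaling of the rest. OST1 was then at 75.8 and 97.3 in FAMA-LGK against 84.7 and 88.4 in WT, with a log2 fold change of -0.01. Other genes rose under this rescaling too, and half-way down the tested genes the log2 fold change was 0.24, beside 0.06 before it. Median-ratio scaling gave OST1 a log2 fold change of -0.28, at 29.0 and 41.0 in FAMA-LGK against 39.7 and 44.4 in WT. Without FAMA-LGK replicate 1 the OST1 log2 fold change was 0.14 and without FAMA-LGK replicate 2 it was -0.54, neither of them called (limma adjusted p = 0.740 and 0.170).

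SnRK2.3 (AT5G66880), which with SnRK2.2 carries ABA responses in seeds and seedlings, was the most abundant member, at 62.3 and 188.8 TPM in FAMA-LGK and 150.3 and 183.6 TPM in WT. The FAMA-LGK libraries lay on both sides of WT. The log2 fold change was -0.61 (SE 0.41, 95% interval -1.54 to 0.32, limma adjusted p = 0.376). Behind the FAMA-LGK values were 952 and 2898 estimated reads, and the 95% Poisson intervals of 58.4 to 66.4 TPM and 182.0 to 195.8 TPM, which cover counting error only, were far apart. The 2 FAMA-LGK libraries differed by 1.59 log2 units for SnRK2.3, more than for 98.1% of the 15143 genes tested, while the WT libraries differed by 0.29. Scaling narrowed this gap only in part, to 64.2 and 170.0 in FAMA-LGK under median-ratio scaling, against 147.1 and 193.9 in WT. The result therefore rests on which FAMA-LGK library is used. Without FAMA-LGK replicate 2 SnRK2.3 was called lower (log2 fold change -1.40, limma adjusted p = 0.00814), and without FAMA-LGK replicate 1 it was not called (0.18, adjusted p = 0.655).

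SnRK2.2 (AT3G50500), the near relative of SnRK2.3, was at 19.3 and 27.7 TPM in FAMA-LGK and at 25.2 and 35.7 TPM in WT. The ranges overlapped, and the log2 fold change was -0.36 (SE 0.27, 95% interval -0.96 to 0.23, limma adjusted p = 0.413). Unlike SnRK2.3, SnRK2.2 differed by similar amounts between the libraries of each genotype, by 0.50 log2 units in FAMA-LGK and 0.49 in WT.

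In subclass I, SnRK2.4 (AT1G10940), a kinase known from osmotic and salt stress in roots, was at 15.2 and 22.3 TPM in FAMA-LGK and at 10.5 and 12.0 TPM in WT. Both FAMA-LGK values lay above both WT values, as they did for 31.6% of all genes tested. SnRK2.4 averaged 18.8 ± 5.07 TPM in FAMA-LGK and 11.3 ± 1.04 TPM in WT (SD, n = 2 libraries each), a ratio of 1.67. The log2 fold change of 0.67 (SE 0.27, 95% interval 0.07 to 1.26) had an unadjusted p of 0.0318 and did not pass after adjustment (limma adjusted p = 0.135). It passed once ribosomal RNA and organelle genes had been taken out, where SnRK2.4 was at 40.8 and 47.7 in FAMA-LGK and 21.9 and 25.2 in WT (log2 fold change 0.88, adjusted p = 0.0402). That rescaling also moved the median of all genes to 0.24. Leaving out 1 library gave log2 fold changes of 0.40 to 0.93 for SnRK2.4. Each of these fits leaves 1 library in a genotype, so a missing call there says little about SnRK2.4.

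SnRK2.10 (AT1G60940), the closest relative of SnRK2.4, was at 53.3 and 66.4 TPM in FAMA-LGK and at 53.2 and 48.4 TPM in WT. The lower FAMA-LGK value and the higher WT value were nearly equal, although the ranges did not overlap. The log2 fold change was 0.22 (SE 0.21, 95% interval -0.25 to 0.70, limma adjusted p = 0.538). SnRK2.1 (AT5G08590) was low, at 3.47 and 5.51 TPM in FAMA-LGK and 4.29 and 3.06 TPM in WT, and the ranges overlapped. Its log2 fold change of 0.22 had the second widest 95% interval of the 6 members, -0.55 to 0.99 (limma adjusted p = 0.728), with 54 and 86 estimated reads in FAMA-LGK and 68 and 55 in WT.

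**Figure D2:**
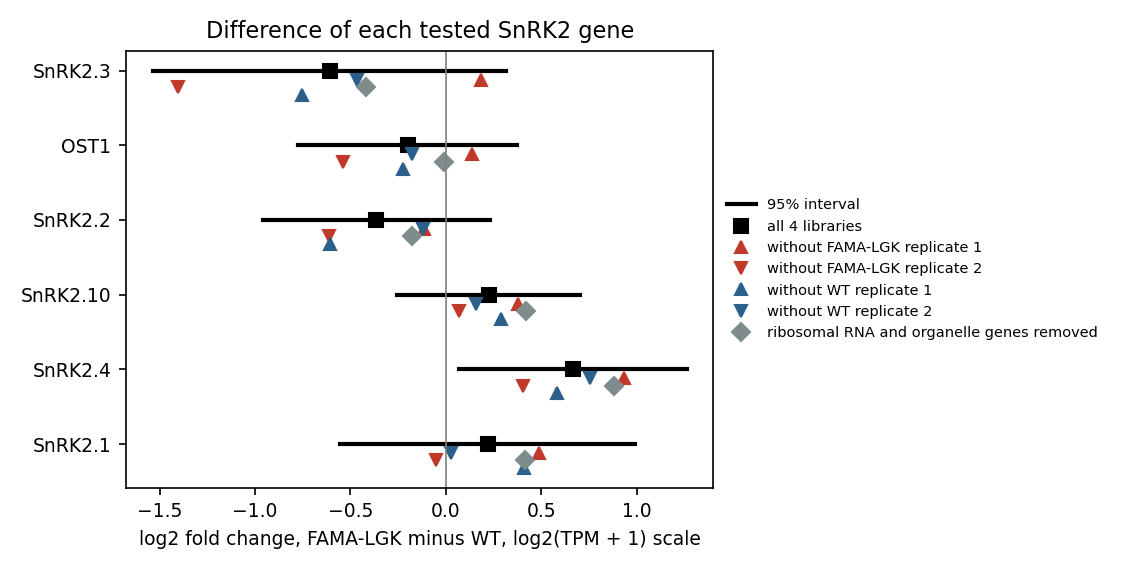
Log2 fold change of the 6 tested SnRK2 genes, FAMA-LGK minus WT on the log2(TPM + 1) scale, with all 4 libraries (black square and 95% interval), with 1 library left out (triangles, red for a FAMA-LGK and blue for a WT library) and after removal of ribosomal RNA and organelle genes (grey diamond). SnRK2.3 spans from -1.40 to 0.18 depending on the FAMA-LGK library left out, and SnRK2.4 lies above 0 in each of these fits.

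The other 3 members lay below the minimum of 1 TPM on average and were not tested. SnRK2.8 (AT1G78290), a subclass II kinase, was at 0 and 0.116 TPM in FAMA-LGK and at 1.60 and 0.101 TPM in WT. The single higher value, in WT replicate 1, rested on an estimated 28 reads, beside 2 in WT replicate 2 and 0 and 2 in FAMA-LGK, all of them fewer if the authors' gene length was shorter. SnRK2.7 (AT4G40010), the other subclass II kinase, was at 0 and 0.0908 TPM in FAMA-LGK, the second value being about 1 read, and at 0 in both WT libraries. At the annotated length of 1440 bases, a count of 0 allows up to 0.200 TPM of SnRK2.7 in FAMA-LGK replicate 1. In WT replicates 1 and 2 it allows up to 0.196 and 0.173 TPM (3 reads per library, counting error only). At that length the value of 0.0908 TPM is not a whole read. It is 1 read at the coding length of 1053 bases, where these limits would be higher. SnRK2.5 (AT5G63650), the subclass I relative of SnRK2.1, was at 0.608 and 0.202 TPM in FAMA-LGK and at 0.133 and 0 TPM in WT, from an estimated 9, 3, 2 and 0 reads in that order. Both FAMA-LGK values were the higher ones, but 22.7% of the exon length of SnRK2.5 overlaps AT5G63640 on the opposite strand, which was at 11.9 to 18.9 TPM. For SnRK2.8 the overlap with the opposite strand was 9.05%. Whether the counting used strand is not given in the sources used here, so reads in these parts cannot be assigned. SnRK2.9 (AT2G23030), a further gene of the family outside the 9, was at 0 TPM in all 4 libraries. At its annotated length of 1409 bases this allows up to 0.204 TPM in each, and more if the authors' gene length was shorter.

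The family total was 182.3 and 356.7 TPM in FAMA-LGK and 285.9 and 325.0 TPM in WT, so the WT totals lay between those of FAMA-LGK. Subclass III held 109.7 and 262.1 TPM of it in FAMA-LGK and 216.2 and 261.4 TPM in WT. Subclass I held 72.5 and 94.4 TPM in FAMA-LGK, above the 68.1 and 63.5 TPM in WT. As a share of the family, OST1 was at 14.1% ± 1.90 in FAMA-LGK and 13.6% ± 0.904 in WT (SD, n = 2 libraries each), a difference smaller than the spread. SnRK2.3 took 43.6% ± 13.3 of the family in FAMA-LGK and 54.6% ± 2.78 in WT, and SnRK2.4 took 7.30% ± 1.46 in FAMA-LGK and 3.69% ± 0.00597. Subclass III as a whole was at 66.8% ± 9.38 in FAMA-LGK and 78.0% ± 3.41 in WT.

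**Figure D3:**
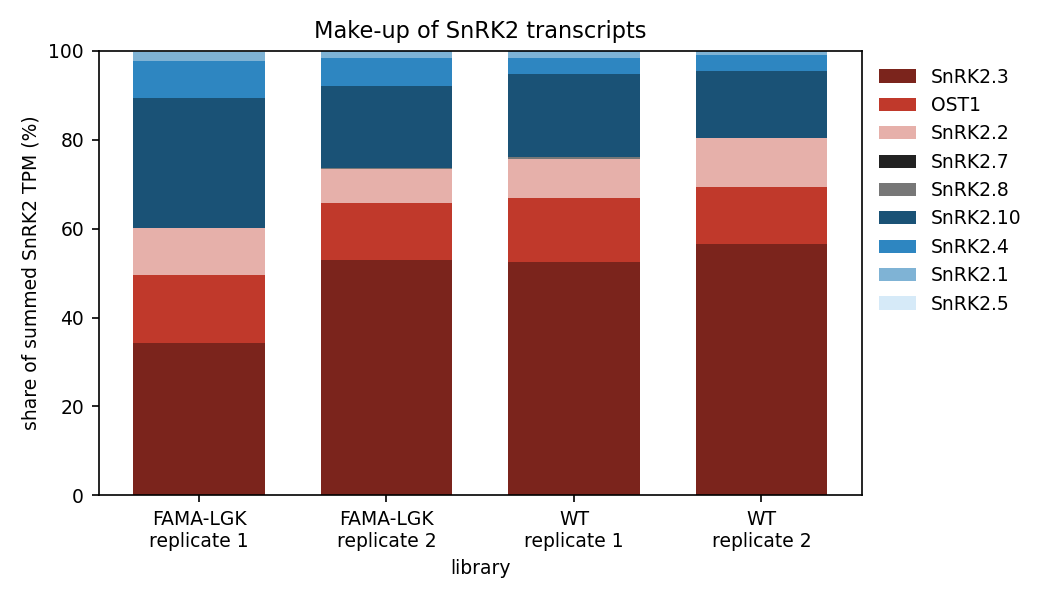
Share of each SnRK2 gene in the summed TPM of the 9 genes, in percent, stacked for each of the 4 libraries, with subclass III in reds, subclass II in greys and subclass I in blues. FAMA-LGK replicate 1 stands apart from the other 3 libraries by its smaller SnRK2.3 segment, and SnRK2.7, SnRK2.8 and SnRK2.5 are too small to see clearly.

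A ratio of 2 genes within a library does not depend on how that library was scaled, so each tested member was also set against OST1, which gave 5 ratios of TPM. SnRK2.4 stood at 0.539 and 0.490 of OST1 in FAMA-LGK and at 0.259 and 0.285 of OST1 in WT. SnRK2.10 stood at 1.89 and 1.46 times OST1 in FAMA-LGK and at 1.31 and 1.15 times in WT, and SnRK2.1 at 0.123 and 0.121 of OST1 in FAMA-LGK and 0.106 and 0.0727 in WT. These 3 subclass I ratios were higher in both FAMA-LGK libraries than in both WT libraries, as was the ratio to OST1 of 36.5% of all other genes tested. The ratios share OST1 as their denominator, so they are not independent of each other. The subclass III ratios overlapped. SnRK2.2 stood at 0.684 and 0.608 of OST1 in FAMA-LGK and at 0.620 and 0.850 in WT, and SnRK2.3 at 2.21 and 4.14 times OST1 in FAMA-LGK and 3.70 and 4.37 times in WT. With 2 libraries against 2, an exact permutation test of such a ratio cannot give a two-sided p below 0.333, so these ratios are descriptions, and they were computed after the levels had been seen. SnRK2.4 relative to SnRK2.10, with which it shares the 59-base run, was 0.285 and 0.337 in FAMA-LGK and 0.198 and 0.248 in WT.

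**Figure D4:**
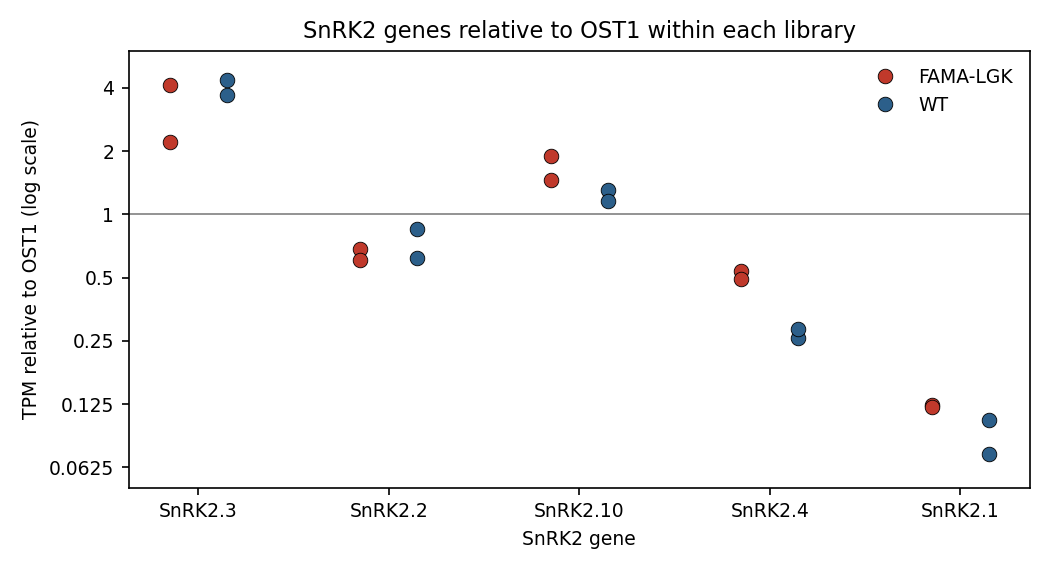
TPM of the other 5 tested SnRK2 genes relative to OST1 within each library, on a log axis, in FAMA-LGK (red, left) and WT (blue, right). The points of SnRK2.10, SnRK2.4 and SnRK2.1 are higher in FAMA-LGK, with SnRK2.4 at 0.490 and 0.539 against 0.259 and 0.285, while those of SnRK2.3 and SnRK2.2 overlap.

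The genes around the kinases were counted in lists, beside the 12.6% of all genes called. Upstream, the PYR/PYL receptors that sense ABA had 3 of 9 tested members lower, 0 higher and 6 not called. PYL2 fell to 2.68 and 5.84 TPM in FAMA-LGK, against 55.8 and 70.5 TPM in WT, a log2 fold change of -3.67 (limma, adjusted p = 1.1e-04). PYL4 fell to 55.7 and 51.1 TPM in FAMA-LGK, against 140.4 and 125.9 TPM in WT (adjusted p = 0.00293). PYR1 fell to 9.81 and 13.3 TPM in FAMA-LGK, against 28.1 and 20.3 TPM in WT (adjusted p = 0.0372, and 0.121 with FAMA-LGK replicate 1 left out). Of 7 tested clade A phosphatases, the direct inhibitors of the kinases, 1 was lower, ABI2, at 14.8 and 28.7 TPM in FAMA-LGK and 54.4 and 68.3 TPM in WT (log2 fold change -1.52, adjusted p = 0.0107), and 6 were not called. Receptors summed to 143.7 and 196.2 TPM in FAMA-LGK and to 305.2 and 308.9 TPM in WT. Phosphatases summed to 276.0 and 389.5 TPM in FAMA-LGK and to 361.1 and 362.8 TPM in WT. Relative to the subclass III kinases, receptors stood at 1.31 and 0.748 times in FAMA-LGK and at 1.41 and 1.18 times in WT. Phosphatases stood at 2.52 and 1.49 times subclass III in FAMA-LGK and at 1.67 and 1.39 times in WT. Both ratios overlapped between the genotypes, and the lower subclass III total of FAMA-LGK replicate 1 enters both.

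RAF-like kinases of groups B2, B3 and B4, which phosphorylate and so activate SnRK2 kinases, had 1 of 17 tested members higher, 1 lower and 15 not called. AT3G06620, of group B2, rose to 12.0 and 13.0 TPM in FAMA-LGK, against 3.68 and 3.57 TPM in WT (log2 fold change 1.54, limma adjusted p = 0.00636). AT4G24480, of group B3, fell to 8.23 and 12.2 TPM in FAMA-LGK, against 30.8 TPM in both WT libraries (log2 fold change -1.53, adjusted p = 0.00453). The 7 members of group B4, activators of subclass I kinases in osmotic stress, were all tested and limma called 0, with a median log2 fold change of -0.27. Among 6 tested regulators of other kinds, limma called 0. Before adjustment 2 of the 6 had p below 0.05, a share near the 28.3% of all genes tested, and voom called 1.

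Downstream, 17 of 20 substrates of SnRK2 kinases were tested, of which 3 were higher, 4 lower and 10 not called, with a median log2 fold change of -0.67 beside 0.06 for all genes. The anion channel gene ALMT12 fell to 1.37 and 3.16 TPM in FAMA-LGK, against 11.6 and 14.6 TPM in WT (log2 fold change -2.17, limma adjusted p = 0.00362). RBOHF, an NADPH oxidase gene, fell to 1.05 and 0.946 TPM in FAMA-LGK, against 4.66 and 4.59 TPM in WT (adjusted p = 0.0214). SPCH, which encodes the factor for entry into the stomatal lineage, rose to 26.6 and 42.2 TPM in FAMA-LGK, against 4.05 and 2.88 TPM in WT (adjusted p = 2.9e-04). ABF1, a factor that binds ABA-responsive promoters, rose to 2.65 and 4.75 TPM in FAMA-LGK, against 0.520 and 0.712 TPM in WT (adjusted p = 0.0371, and 0.112 without FAMA-LGK replicate 2). The other 3 called, named after their values were seen, were SLAC1, SCRM and VCS. SLAC1, the anion channel of stomatal closure, was lower at 16.6 and 16.9 TPM in FAMA-LGK and 39.3 and 45.0 TPM in WT (adjusted p = 0.00496). SCRM, a partner of SPCH, was lower at 90.1 and 90.0 TPM in FAMA-LGK and 150.4 and 153.2 TPM in WT (adjusted p = 0.0349, and 0.0630 and 0.0597 without FAMA-LGK replicate 1 and without replicate 2). VCS, an mRNA decapping factor that subclass I kinases phosphorylate, was higher at 34.4 and 43.1 TPM in FAMA-LGK and 21.1 and 22.0 TPM in WT (adjusted p = 0.0429, and 0.126 without FAMA-LGK replicate 2). Of the 13 guard cell markers 9 were lower in FAMA-LGK too and 1, MYB60, was higher, and their part in these differences was not tested. The marker list also holds ALMT12, SLAC1 and KAT1.

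Genes known to be induced by ABA gave 1 higher, 2 lower and 2 not called among 5 tested. Whether their differences ran through SnRK2 kinases was not tested. RAB18, a dehydrin gene, fell to 0 and 1.62 TPM in FAMA-LGK, against 7.04 and 6.38 TPM in WT (log2 fold change -2.25, limma adjusted p = 0.0131, and 0.0528 with a pseudocount of 0.1). KIN1 fell to 3.15 and 2.09 TPM in FAMA-LGK, against 17.2 and 17.8 TPM in WT (adjusted p = 7.9e-04), and is a close copy of its neighbour KIN2, so its value is uncertain. RD29A rose to 15.9 TPM in both FAMA-LGK libraries, against 5.35 and 9.29 TPM in WT (adjusted p = 0.0429, and 0.113 and 0.107 without FAMA-LGK replicate 1 and without replicate 2). Of the 6 genes of the SnRK1 complex, the related energy-sensing kinase, 1 was higher, the beta subunit gene KINBETA1, at 25.5 and 37.4 TPM in FAMA-LGK and 16.7 and 13.8 TPM in WT (adjusted p = 0.0360, and 0.134 without FAMA-LGK replicate 2). With either WT library left out limma called 0 genes of the whole table, the lowest adjusted p being 0.0614 and 0.0553, so these fits could not show which of the calls in these lists depend on 1 WT library. At p before adjustment below 0.05 there were 2675 and 2365 genes without WT replicate 1 and without WT replicate 2.

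**Figure D5:**
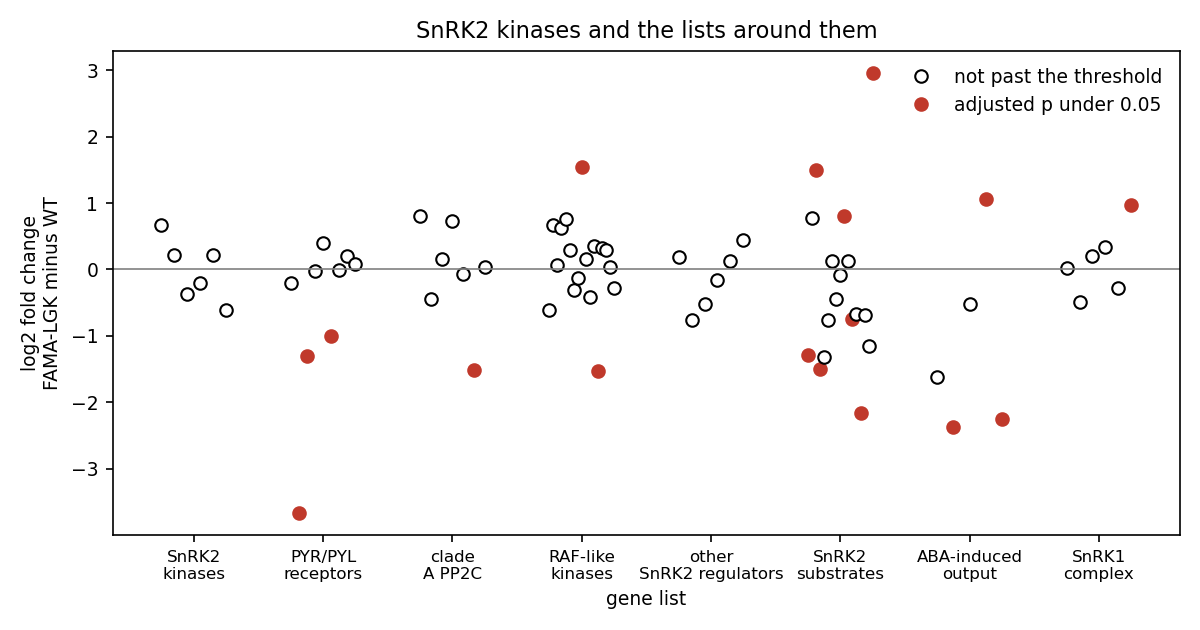
Log2 fold change, FAMA-LGK minus WT on the log2(TPM + 1) scale, of each tested gene in the SnRK2 family and in 7 lists around it, with red points for genes past the adjusted p threshold and open points for the rest. The 6 SnRK2 genes lie between -0.61 and 0.67 with no red point, while PYL2 among the receptors reaches -3.67 and SPCH among the substrates 2.96.

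The genes with profiles most like that of OST1 were found by the Euclidean distance between log2(TPM + 1) values over the 4 libraries, among all genes tested. The nearest 5 began with AT3G25600, an EF hand calcium-binding protein (distance 0.16), and AT1G03370, a C2 and GRAM domain protein (0.16). Next was ATCG01160 (0.19), a chloroplast gene by its identifier, which the annotation used here does not match. AT5G26600, a transferase that depends on pyridoxal phosphate (0.21), and AT4G19410, annotated as a pectin acetylesterase (0.23), followed. AT3G25600 was at 27.7 and 46.5 TPM in FAMA-LGK and at 39.9 and 46.7 TPM in WT. Each of the 5 shared the low value of OST1 in FAMA-LGK replicate 1, at 27.7 to 30.7 TPM, and limma called none of them (adjusted p = 0.339 to 0.609). Both follow from the choice of genes by closeness to OST1 in these same values, and are no separate result. A distance over 4 libraries describes likeness of level and little else.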

How the data were processed

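RNA was sequenced from sorted guard cells in 4 libraries, 2 FAMA-LGK and 2 WT, grouped by their titles. The authors deposited 1 table of TPM values for 33602 genes, made from HTSeq counts per the labels. The submitters' processing notes name CASAVA 1.8.2, Bowtie2 and HTSeq with TAIR10. Gene names came from TAIR10.1, which matched 32835 identifiers and all 9 members. Its build has another name, so no genome coordinates are printed. The activation segment sequence of SnRK2.2 is not reported here.

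The test was limma (version 3.58.1, R 4.3.3, variance trend, two-sided) on log2(TPM + 1), with Benjamini-Hochberg adjustment over all genes whose mean TPM reached 1. Fold changes on this scale understate changes of low genes. TPM keeps no depth, but values come in steps that depend on the library and on gene length. Of 20880 genes with at least 2 values above 0, 99.96% gave whole reads at 1 length (tolerance 0.0001 reads). Among 2000 genes above 0 in all libraries the share was 99.95%, against 2.35% after 1 library was shuffled. Multiples of that length fit equally, so the one nearest the annotated length was taken and read numbers are estimates. They are not independent molecules.

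Named genes were the members, SnRK2.9, up to 4 called genes of each list with the largest changes, and the 5 nearest profiles. SLAC1, SCRM and VCS were named after their values were seen. The members and lists were chosen with earlier results of these data known. On simulated reads the fit recovered most of the largest changes, with the right sign, but the share of false calls was above the nominal level. Alternatives were other pseudocounts, filters and scalings, other variance settings, libraries left out, a replicate block and, added after seeing the data, voom on estimated reads. Python 3.11.15, pandas 2.3.3, numpy 2.4.6, scipy 1.17.1, matplotlib 3.10.9 and Biopython 1.88 were used.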

Additional observations from a re-analysis of the deposited data

How the results depend on the processing

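No SnRK2 member was called in the main comparison, nor under any alternative except 2: with ribosomal RNA and organelle genes removed 1 was called (SnRK2.4, log2 fold change 0.88), and without FAMA-LGK replicate 2 1 was called (SnRK2.3, -1.40). The cause was not tested. Leaving out 1 library gave log2 fold changes from -0.54 to 0.14 for OST1, -1.40 to 0.18 for SnRK2.3, -0.61 to -0.11 for SnRK2.2, 0.40 to 0.93 for SnRK2.4, 0.07 to 0.38 for SnRK2.10 and -0.05 to 0.49 for SnRK2.1. It gave 0 to 1 SnRK2 members called. With 2 libraries per genotype, leaving 1 out cannot move a mean share by more than its SD, and SnRK2.9 is at 0 TPM, so neither alternative bears on the shares.

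Without a filter 511 genes were called in place of 1907, among 23227 tested in place of 15143, with 0 phosphatases, 0 RAF-like kinases, 2 substrates, 1 ABA-induced gene and 0 SnRK1 genes. Leaving out 1 library gave 0 to 1685 genes called. Over the same fits the receptors had 0 to 3 called, the phosphatases 0 to 2, the RAF-like kinases 0 to 2, the other regulators 0 to 1, the substrates 0 to 6, the ABA-induced genes 0 to 3 and the SnRK1 genes 0 to 1. A pseudocount of 0.1 left 1 ABA-induced gene called, and no variance trend left 0 SnRK1 genes. Of the 17 called genes named in the lists, 5 kept their calls without a filter (PYL2, PYL4, SPCH, SLAC1 and KIN1), 12 without a variance trend, 15 with a pseudocount of 0.1, 15 after removal of ribosomal RNA and organelle genes, 16 with median-ratio scaling, and all 17 with a pseudocount of 5, robust variance, the replicate block or voom. Median-ratio scaling called 2 of the other regulators and voom 1.

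Same-numbered libraries deviated together only weakly (correlation 0.08 over 15143 genes), and the titles share no more than a number. With a replicate block, 2 phosphatases and 1 other regulator were called, 2844 genes in all, and 0 SnRK2 members. The lowest adjusted p of that fit (limma) was 6.9e-139, which 4 libraries cannot support on their own. Its calls, and the 17 named genes that kept theirs under it, rest largely on variance pooled over genes. Precision is limited by 2 libraries per genotype, and for SnRK2.5, SnRK2.7 and SnRK2.8 also by reads, of which no library held more than 28.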
